A study of Mus musculus with 10 samples.

Results

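The genes described here are a module of 39 DNA replication and S phase genes, taken by symbol from a list, out of 47719 gene rows measured by RNA-seq in mouse plasma cells. All 39 symbols matched 1 Ensembl identifier each (GENCODE release M21, build GRCm38). By role they fell into 10 genes of origin licensing, 6 of helicase activation, 14 of synthesis at the fork, 5 of nucleotide supply and 4 of S phase control. Libraries came from plasma cells sorted from the spleen by isotype, 5 from IgG1 cells and 5 from IgM cells. Cells of both groups descended from transferred, congenically marked B cells that carried the same 3 alleles. S1PR2-CreERT2 expresses a tamoxifen-dependent Cre from the promoter of S1pr2, a receptor gene used by germinal centre B cells. Ai14 is a reporter that makes tdTomato once Cre has acted, and B1-8germ is a germline heavy chain specific for the hapten NP. Wild-type hosts were immunized with NP-CGG/alum at day 0. Tamoxifen followed at days 5 and 6, and tdTomato+ donor cells were sorted at day 10. Both groups therefore share every allele and treatment, and an animal's age, the number of animals and any pooling are not given in the labels. The labels do not state that replicates are separate animals. Every p-value here thus reflects only how far these libraries scatter, and that scatter could be technical. In bulk RNA, a larger share of cells in S phase and more replication mRNA per cell cannot be told apart.

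DNA replication is prepared in G1, when the origin recognition complex, Cdc6 and Cdt1 load the ring-shaped helicase of the Mcm2 to Mcm7 proteins onto origins. Cdc45 and the GINS complex join the ring to make it active, after which primase, the polymerases, the sliding clamp and its loader copy the DNA. Many of these genes are targets of E2F transcription factors and are transcribed around the entry into S phase. Plasmablasts, the recent products of activated B cells, still divide, whereas mature plasma cells have left the cell cycle.

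By the median of each step, the genes of this module were higher in IgG1 than in IgM plasma cells at every step. Replication genes outside the module did not follow at every step, as given below. Of the 39 members, 33 were higher in IgG1 cells, 0 were lower and 6 did not pass the test, where 18.1% of all 9900 tested genes were higher and 20.2% were lower, 38.3% in all (limma on log2-transformed FPKM with 1 added, Benjamini-Hochberg adjusted p under 0.05 over all tested genes). All members passed the filter of a mean of at least 1 FPKM. The median log2 difference, IgG1 minus IgM, was 0.68 over the members and -0.051 over all tested genes. Of the 39 members, 38 had a positive difference. In 28 members every IgG1 library was above every IgM library, against 13.1% of all tested genes. The summed level of the members was 2892 ± 76.6 FPKM in IgG1 and 1747 ± 132 FPKM in IgM libraries (SD, n = 5 each). By step, the median log2 difference was 0.82 for licensing, 0.51 for helicase activation, 0.69 for fork synthesis, 0.77 for nucleotide supply and 0.53 for S phase control. Summed levels for licensing were 676 ± 19.9 FPKM in IgG1 and 379.9 ± 26.2 FPKM in IgM libraries, and for helicase activation 149 ± 4.51 FPKM in IgG1 and 105 ± 12.7 FPKM in IgM libraries. Fork synthesis genes summed to 1043 ± 28.6 FPKM in IgG1 and 648 ± 50.5 FPKM in IgM libraries. Nucleotide supply genes summed to 774 ± 33.7 FPKM in IgG1 and 445 ± 33.3 FPKM in IgM libraries, and S phase control genes to 249 ± 19.2 FPKM in IgG1 and 169 ± 19.0 FPKM in IgM libraries. Ratios of the group means ran from 0.868 for Orc1 to 2.84 for Pole.

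**Figure D1:**
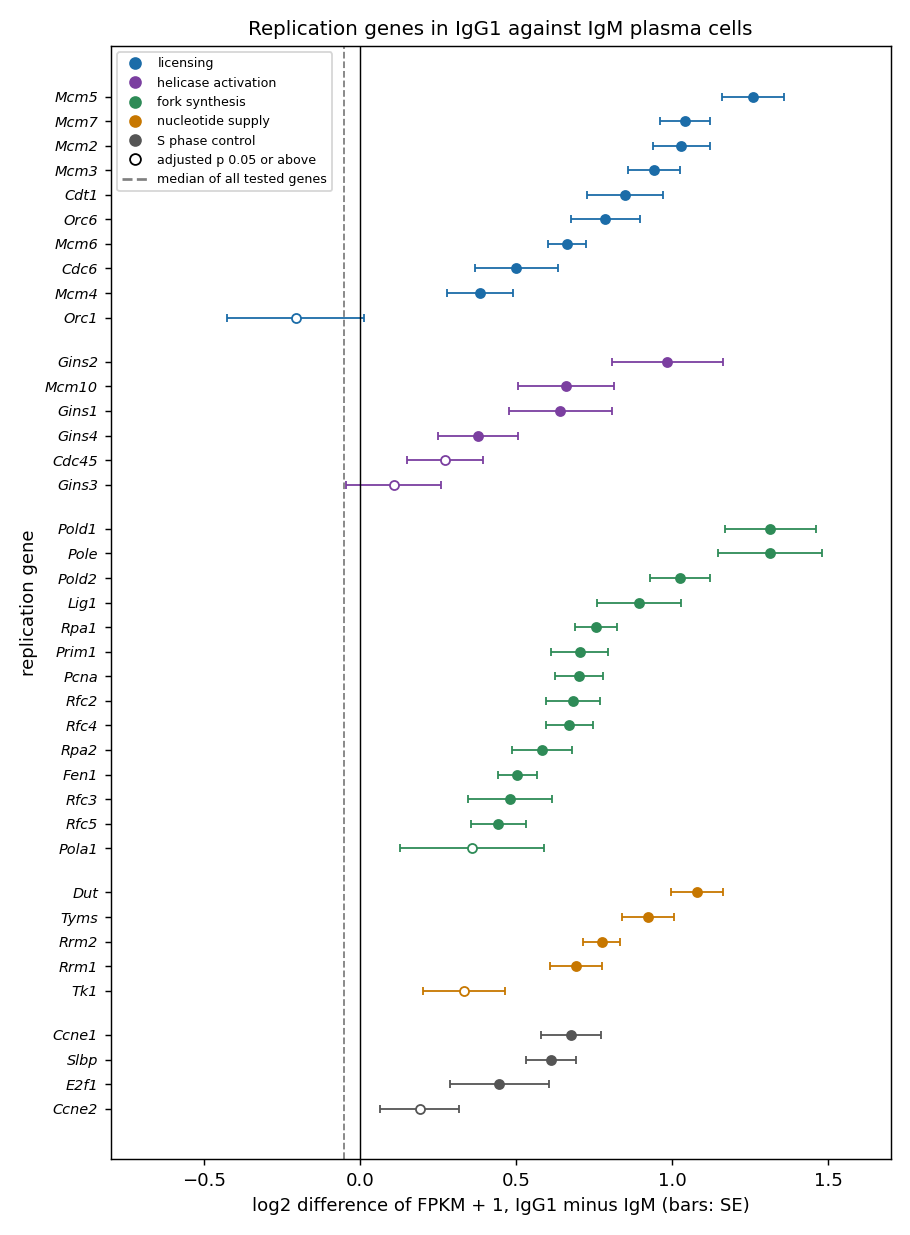
The log2 difference of FPKM plus 1 (IgG1 minus IgM, x axis) of each of the 39 replication genes (y axis), by step, with the SE as bars and n = 5 libraries a group. Filled points passed at an adjusted p under 0.05, which 33 did, and Orc1 is the only point left of 0.

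Estimated sequencing depth ran from 26510000 to 38570000 fragments in IgG1 and from 26980000 to 31290000 fragments in IgM libraries. The reference gene Gapdh was higher in IgG1 cells without overlap, at 269 to 318 FPKM in IgG1 and 136 to 167 FPKM in IgM libraries. The number of genes above 0 was 13286 to 13961 in IgG1 and 15121 to 15800 in IgM libraries, and immunoglobulin genes took 62.5% to 73.1% of summed FPKM in IgG1 and 68.7% to 73.5% in IgM libraries. Summed levels of 6 plasma cell genes were 23220 to 26671 FPKM in IgG1 and 39720 to 43929 FPKM in IgM libraries, most of it Jchain. Jchain, which links IgM pentamers, was at 19438 to 23043 FPKM in IgG1 and 36165 to 40282 FPKM in IgM libraries (log2 difference -0.88, limma adjusted p = 4.55e-09), and its log2 difference was 0 after quantile normalization. That scaling gives genes of equal rank equal values, so it cannot show a difference for a gene of the same rank in every library. Without overlap as well, Tnfrsf17, the receptor BCMA, was lower in IgG1 cells at 42.2 to 51.8 FPKM in IgG1 and 121 to 146 FPKM in IgM libraries (log2 difference -1.49, limma adjusted p = 1.42e-10). Prdm1, which encodes Blimp-1, was lower at 24.8 to 32.2 FPKM in IgG1 and 48.7 to 55.3 FPKM in IgM libraries (log2 difference -0.86, limma adjusted p = 6.37e-07). Xbp1, a driver of secretion, passed as higher (log2 difference 0.13, limma adjusted p = 0.0104), and its log2 difference was -0.052 with length and GC trends removed. The part of these differences in the results was not tested. With levels rescaled to a common total without immunoglobulin genes, 33 members were still called higher. With trends in transcript length and GC content removed, 32 were called higher, with a median log2 difference of 0.71. The plasma cell markers Sdc1 and Irf4 overlapped between groups, Sdc1 at 242 to 276 FPKM in IgG1 and 266 to 299 FPKM in IgM libraries and Irf4 at 48.3 to 66.1 FPKM in IgG1 and 60.8 to 71.9 FPKM in IgM libraries. Both passed as lower in IgG1 cells (log2 differences -0.13 and -0.24, limma adjusted p = 0.0468 and 0.0496). Each of these calls ended under 11 of 21 alternatives (limma adjusted p up to 0.163 and 0.187). Summed levels of 6 T cell markers were 0.794 to 3.10 FPKM in IgG1 and 0.248 to 1.95 FPKM in IgM libraries, and those of 6 erythroid markers 0.440 to 2.89 FPKM in IgG1 and 0.277 to 4.78 FPKM in IgM libraries. Of the T cell markers, Cd3e was at or near 0 in each library, whereas Cd4 was higher in IgG1 cells at 3.10, 0.773, 1.91, 1.09 and 2.45 FPKM in IgG1 and 0.281, 0, 0.134, 0.259 and 0.726 FPKM in IgM libraries (log2 difference 1.12, limma adjusted p = 0.00458). The other T cell markers were too low to be tested. Cd3d, Cd3g and Cd8a reached 0, 0.0372 and 0 FPKM in IgG1 and 0.947, 1.22 and 0.114 FPKM in IgM libraries. Cd8b1 reached 0.468 FPKM in IgG1 and 0.114 FPKM in IgM libraries. The part of Cd4-bearing cells in the results was not tested. The sums were 0 in IgG1 and 0 to 1.26 FPKM in IgM libraries for 4 NK cell genes, and 2.99 to 5.80 FPKM in IgG1 and 1.81 to 3.58 FPKM in IgM libraries for 6 monocyte genes. For 6 neutrophil genes they were 0 to 1.24 FPKM in IgG1 and 0 to 0.659 FPKM in IgM libraries, and for 4 megakaryocyte genes 0.669 to 2.46 FPKM in IgG1 and 0.312 to 1.22 FPKM in IgM libraries. Stromal and endothelial genes, 5 of them and mostly Pecam1, summed to 4.63 to 7.77 FPKM in IgG1 and 4.69 to 7.13 FPKM in IgM libraries. Germinal centre genes summed to 88.0 to 103 FPKM in IgG1 and 92.5 to 114 FPKM in IgM libraries, most of it Mef2b and Fas. Gcsam, a germinal centre gene, was lower in IgG1 cells without overlap, at 2.89 to 5.06 FPKM in IgG1 and 13.9 to 15.9 FPKM in IgM libraries (log2 difference -1.59, limma adjusted p = 2.66e-07), and its part in the results was not tested.

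Exons of 14 members overlap a gene on the opposite strand: Orc1, Orc6, Mcm7, Cdc45, Gins2, Pole, Rfc2, Rfc4, Rfc5, Fen1, Lig1, Tk1, Ccne2 and Slbp. No label states that counting used strand, so reads of these pairs cannot be told apart and their values are uncertain by an unknown amount. Of the 25 members without such an overlap, 23 were higher in IgG1 cells, with a median log2 difference of 0.69.

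Licensing genes of the module were higher in IgG1 cells, 9 of 10 of them, against 18.1% of all tested genes. Mcm5, Mcm7, Mcm2 and Mcm3 had the largest differences. Of the helicase subunits, 4 are shown here by their promoters, since they hold more than 1 copy of a sequence that E2F factors bind. The Mcm2 promoter holds none, and Mcm4 has no promoter entry. Orc1 is shown as well because it holds such a sequence and did not pass the test. Each run is 300 bases on GRCm38.p6, from 250 before to 50 after the RefSeq start site, in the direction of the gene. Mcm7 has 2 RefSeq start sites, of which only the 1 shown holds such a sequence, and it was picked for that. Its window lies inside the annotated gene, which on the minus strand begins at 138172422. The capitals mark TTTCCCGC, TTTCGCGC, TTTGCCGC or TTTGGCGC read on either strand.
Mcm3 (chr1:20820263-20820562, minus strand): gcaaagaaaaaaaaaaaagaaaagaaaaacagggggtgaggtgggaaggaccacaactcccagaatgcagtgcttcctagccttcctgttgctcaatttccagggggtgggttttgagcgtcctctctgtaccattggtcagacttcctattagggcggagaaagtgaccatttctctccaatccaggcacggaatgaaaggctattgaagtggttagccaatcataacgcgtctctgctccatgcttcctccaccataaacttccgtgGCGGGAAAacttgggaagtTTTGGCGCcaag
Mcm5 (chr8:75109259-75109558, plus strand): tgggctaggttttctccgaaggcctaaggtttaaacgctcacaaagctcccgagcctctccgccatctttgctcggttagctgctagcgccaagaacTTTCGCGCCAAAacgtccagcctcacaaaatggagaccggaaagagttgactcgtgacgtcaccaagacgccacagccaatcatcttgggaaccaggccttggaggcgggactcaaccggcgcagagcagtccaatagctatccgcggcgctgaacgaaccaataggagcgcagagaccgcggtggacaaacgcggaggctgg
Mcm6 (chr1:128359656-128359955, minus strand): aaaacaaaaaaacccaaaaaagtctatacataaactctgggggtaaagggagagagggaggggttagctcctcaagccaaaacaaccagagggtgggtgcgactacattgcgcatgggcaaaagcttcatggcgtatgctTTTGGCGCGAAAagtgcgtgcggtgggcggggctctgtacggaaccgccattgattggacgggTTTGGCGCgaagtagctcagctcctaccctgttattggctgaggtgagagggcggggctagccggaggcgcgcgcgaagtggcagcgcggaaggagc
Mcm7 (chr5:138171834-138172133, minus strand): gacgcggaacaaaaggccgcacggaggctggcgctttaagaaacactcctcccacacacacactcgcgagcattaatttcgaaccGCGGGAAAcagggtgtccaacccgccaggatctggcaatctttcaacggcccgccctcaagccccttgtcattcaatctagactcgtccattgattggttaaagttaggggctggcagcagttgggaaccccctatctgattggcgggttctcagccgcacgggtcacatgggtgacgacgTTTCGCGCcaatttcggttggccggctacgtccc
Orc1 (chr4:108579204-108579503, plus strand): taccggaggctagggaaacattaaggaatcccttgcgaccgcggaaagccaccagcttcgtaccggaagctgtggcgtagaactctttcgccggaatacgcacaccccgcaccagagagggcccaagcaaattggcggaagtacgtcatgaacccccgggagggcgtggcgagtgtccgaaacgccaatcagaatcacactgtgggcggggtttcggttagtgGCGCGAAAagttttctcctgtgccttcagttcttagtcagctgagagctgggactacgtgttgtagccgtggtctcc
In the Mcm5 promoter TTTCGCGC, whose first base lies at -153 from the start site, overlaps TTTGGCGC on the other strand, and the Mcm6 promoter has such an overlapping pair at -110 and another copy at -47. The copies of Mcm3 lie at 20 and 39, downstream of the start site, those of Mcm7 at -165 and 17, and that of Orc1 at -27.

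Over the module, 32 of 39 members had an entry in the RefSeq promoter table, and 12 of these 32, or 37.5%, held at least 1 of the words. The same words stood in 5.25% of the 7434 tested genes with an entry and in 2.26% of all 32851 promoters of that length. Beside the 5 genes above, the words were found in Cdc6, Cdt1, Gins3, Pola1, Pold1, Rfc3 and Lig1. Among members with an entry, 9 of the 12 with a word were higher in IgG1 cells, with a median log2 difference of 0.76, and 18 of the 20 without one were, with a median of 0.68. The Mcm3, Mcm5, Mcm6 and Mcm7 genes passed, whereas Orc1, Gins3 and Pola1 each hold a word and did not. Mcm2 passed without a word in its entry.

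Mcm5 (chromosome 8, 75109569 to 75128439, plus strand), a subunit of the replicative helicase, differed most among licensing genes. Its level was 98.0, 76.5, 89.5, 99.3 and 93.3 FPKM in the IgG1 libraries, against 31.3, 42.4, 37.9, 33.5 and 43.5 FPKM in the IgM libraries. The lowest IgG1 library was well above the highest IgM library, and the group means differed 2.42-fold (log2 difference 1.26, SE 0.10, limma adjusted p = 2.88e-08). Mcm7 (chromosome 5, 138164583 to 138172422, minus strand), another subunit of the ring, was at 73.6, 79.6, 88.3, 79.8 and 80.8 FPKM in the IgG1 libraries, against 41.5, 34.5, 38.5, 37.7 and 40.7 FPKM in the IgM libraries. Mcm7 was 2.08-fold higher in IgG1 cells (log2 difference 1.04, SE 0.079, limma adjusted p = 1.67e-08). Mcm2 (chromosome 6, 88883474 to 88898780, minus strand) was at 84.9, 83.3, 93.2, 91.9 and 83.1 FPKM in the IgG1 libraries, against 33.8, 43.9, 40.1, 46.1 and 48.7 FPKM in the IgM libraries. Mcm2 was 2.05-fold higher in IgG1 cells (log2 difference 1.03, SE 0.092, limma adjusted p = 1.16e-07). Mcm3 (chromosome 1, 20802968 to 20820312, minus strand) was at 84.7, 87.9, 81.7, 91.3 and 82.4 FPKM in the IgG1 libraries, against 37.1, 48.1, 41.9, 45.6 and 48.9 FPKM in the IgM libraries. Mcm3 was 1.93-fold higher in IgG1 cells (log2 difference 0.94, SE 0.083, limma adjusted p = 9.88e-08). For none of these 4 subunits did the groups overlap, and IgM replicate 1 was the lowest library for Mcm2, Mcm3 and Mcm5.

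Mcm6 and Mcm4 had the smallest log2 differences of the ring. Mcm6, the most abundant of the ring by FPKM, stood at 183 ± 13.2 FPKM in IgG1 and 115 ± 4.44 FPKM in IgM cells (SD, n = 5 each; log2 difference 0.66, SE 0.061, limma adjusted p = 1.53e-07). Mcm4 stood at 45.9 ± 4.52 FPKM in IgG1 and 35.1 ± 4.93 FPKM in IgM cells (SD, n = 5 each; log2 difference 0.38, SE 0.11, limma adjusted p = 0.00806). The Mcm4 groups were separated by little, the highest IgM library being at 39.4 FPKM and the lowest IgG1 library at 42.2 FPKM, and its call ended without the filter on low values (limma adjusted p = 0.0530). In IgG1 cells the order of mean levels was Mcm6, Mcm5, Mcm2, Mcm3, Mcm7 and Mcm4. The ranges of Mcm5, Mcm2, Mcm3 and Mcm7 overlapped one another, while Mcm6 lay above and Mcm4 below all of them. In IgM cells Mcm6 also stood apart at the top, and the ranges of the other 5 subunits overlapped.

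The loaders of the ring were also higher in IgG1 cells. Cdt1, which brings the helicase to origins, was at 23.7 ± 1.74 FPKM in IgG1 and 12.8 ± 1.88 FPKM in IgM cells (SD, n = 5 each; log2 difference 0.85, SE 0.12, limma adjusted p = 2.40e-05). Orc6, the smallest subunit of the origin recognition complex, was at 30.1 ± 3.23 FPKM in IgG1 and 17.0 ± 1.57 FPKM in IgM cells (log2 difference 0.79, SE 0.11, limma adjusted p = 2.25e-05). Cdc6, the loading ATPase, was at 43.7 ± 4.06 FPKM in IgG1 and 31.1 ± 6.71 FPKM in IgM cells (log2 difference 0.50, SE 0.13, limma adjusted p = 0.00653). None of these 3 overlapped between groups, although the highest IgM library for Cdc6, at 37.1 FPKM, came close to the lowest IgG1 library, at 38.1 FPKM. Without the filter on low values the call of Cdc6 ended (limma adjusted p = 0.0685). Orc1, the large ATPase subunit of the complex, was at 2.79, 4.75, 4.81, 7.92 and 4.00 FPKM in the IgG1 libraries, against 5.79, 4.94, 7.59, 5.50 and 4.14 FPKM in the IgM libraries. The Orc1 groups overlapped (95% interval of the log2 difference -0.67 to 0.25, limma adjusted p = 0.480).

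**Figure D2:**
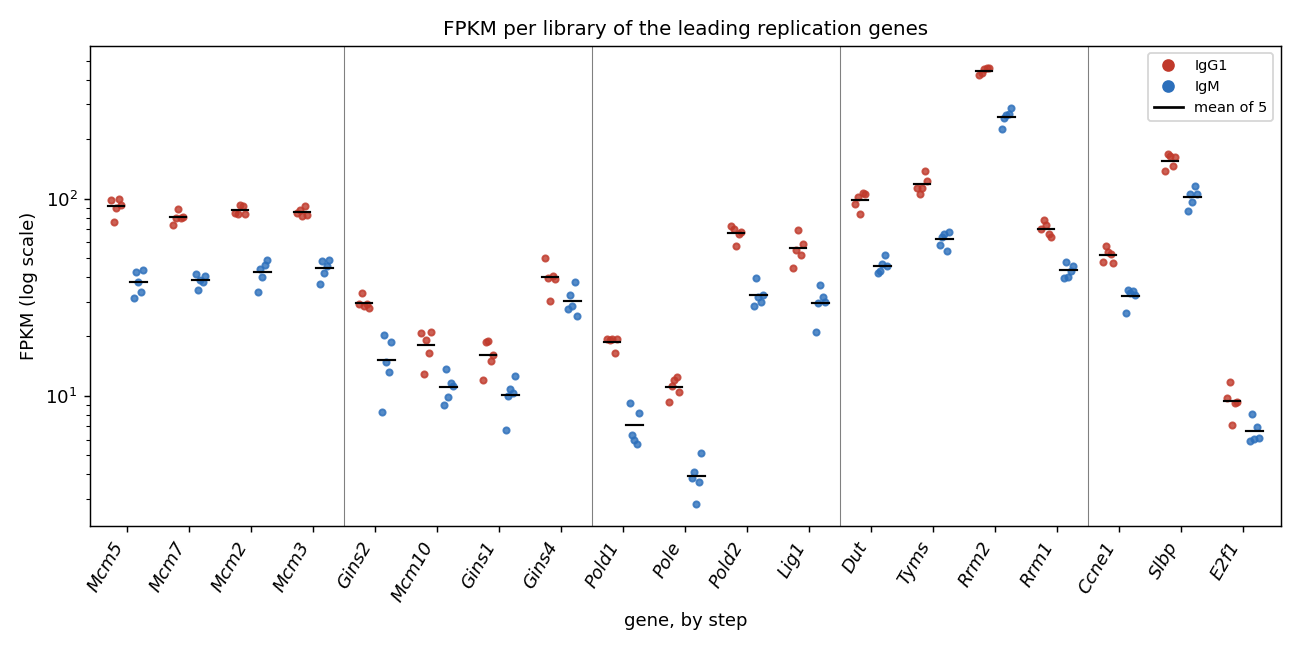
FPKM on a log scale (y axis) in each library for up to 4 called genes of each step with the largest differences (x axis), IgG1 points left of IgM points, with a bar at the mean of 5 libraries. The groups are apart for all 4 genes of licensing, fork synthesis and nucleotide supply, and overlap for Mcm10, Gins1, Gins4 and E2f1.

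Helicase activation was the step with the most overlap between groups, with 4 of 6 genes higher in IgG1 cells and 1 of 6 without overlap. Among all tested genes, 18.1% were higher and 13.1% had every IgG1 library above every IgM library. The count without overlap is thus near the share over all tested genes. Gins2, a subunit of the 4-part GINS complex, was at 29.3, 33.4, 28.5, 29.2 and 28.0 FPKM in the IgG1 libraries, against 8.24, 20.4, 14.9, 13.3 and 18.9 FPKM in the IgM libraries. All IgG1 libraries were above the IgM libraries, among which replicate 1 was far below the rest (ratio of means 1.96, log2 difference 0.98, SE 0.18, limma adjusted p = 3.22e-04). Mcm10, a factor that helps the assembled helicase to start, was at 20.9, 12.9, 19.2, 16.6 and 21.1 FPKM in the IgG1 libraries, against 8.99, 13.7, 9.83, 11.6 and 11.2 FPKM in the IgM libraries. IgG1 replicate 2 lay below the highest IgM library for Mcm10 (log2 difference 0.66, SE 0.15, limma adjusted p = 0.00240). Gins1 was at 12.1, 18.8, 19.0, 15.0 and 16.1 FPKM in the IgG1 libraries, against 6.69, 9.99, 10.8, 10.4 and 12.5 FPKM in the IgM libraries. For Gins1, 1 IgG1 library lay inside the IgM range (log2 difference 0.64, SE 0.17, limma adjusted p = 0.00513). Gins4 was at 50.2, 39.5, 30.4, 40.4 and 38.99 FPKM in the IgG1 libraries, against 27.5, 32.4, 28.7, 37.9 and 25.5 FPKM in the IgM libraries. Gins4 was 1.31-fold higher in IgG1 cells (log2 difference 0.38, SE 0.13, limma adjusted p = 0.0265). The Gins4 groups overlapped, with IgG1 replicate 3 below 2 of the IgM libraries, and its call ended under 8 of 21 alternatives (limma adjusted p up to 0.145). With length and GC trends removed, its log2 difference was 0.25. With 1 library left out, the limma adjusted p of Gins4 was 0.0784 without IgG1 replicate 1, 0.0521 without IgG1 replicate 4, 0.0594 without IgM replicate 1, 0.0517 without IgM replicate 3 and 0.0709 without IgM replicate 5. Gins3 was at 9.95 FPKM in IgG1 and 9.11 FPKM in IgM cells (95% interval of the log2 difference -0.21 to 0.43, limma adjusted p = 0.607). Cdc45, the partner of GINS on the helicase, was at 35.3 FPKM in IgG1 and 29.4 FPKM in IgM cells (95% interval of the log2 difference 0.017 to 0.53, limma adjusted p = 0.0864). The call of Cdc45 was gained without IgM replicate 3 (limma adjusted p = 0.0227).

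At the fork, 13 of 14 genes were higher in IgG1 cells, against 18.1% of all tested genes. The polymerases of the leading and lagging strands showed the largest ratios of the whole module. Pole (chromosome 5, 110286306 to 110337474, plus strand), the catalytic subunit of the leading strand polymerase epsilon, was at 9.34, 11.3, 12.1, 12.5 and 10.4 FPKM in the IgG1 libraries, against 3.82, 4.10, 2.82, 3.66 and 5.15 FPKM in the IgM libraries. Pole was 2.84-fold higher in IgG1 cells (log2 difference 1.31, SE 0.17, limma adjusted p = 6.10e-06). Pold1 (chromosome 7, 44532746 to 44548849, minus strand), the catalytic subunit of the lagging strand polymerase delta, was at 19.3, 19.3, 19.5, 16.6 and 19.5 FPKM in the IgG1 libraries, against 9.19, 6.33, 5.98, 5.69 and 8.22 FPKM in the IgM libraries. Pold1 was 2.66-fold higher in IgG1 cells (log2 difference 1.31, SE 0.15, limma adjusted p = 1.37e-06). For both genes every IgG1 library lay above every IgM library. Pold2 (chromosome 11, 5872180 to 5878292, minus strand), the second subunit of polymerase delta, was at 73.0, 70.4, 57.8, 66.5 and 67.8 FPKM in the IgG1 libraries, against 28.6, 39.8, 31.9, 30.1 and 32.6 FPKM in the IgM libraries. Pold2 was 2.06-fold higher in IgG1 cells (log2 difference 1.02, SE 0.097, limma adjusted p = 2.07e-07). Lig1 (chromosome 7, 13277283 to 13311433, plus strand), the ligase that seals Okazaki fragments, was at 44.3, 54.9, 69.5, 51.8 and 58.9 FPKM in the IgG1 libraries, against 21.1, 29.6, 36.3, 31.8 and 29.9 FPKM in the IgM libraries. Lig1 was 1.88-fold higher in IgG1 cells (log2 difference 0.89, SE 0.13, limma adjusted p = 4.53e-05). These groups were also apart, with the widest spread among IgG1 libraries in Lig1.

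Among priming genes of the module, Prim1 passed and Pola1 did not. Prim1, the catalytic subunit of primase, was at 49.5 ± 3.56 FPKM in IgG1 and 30.0 ± 2.64 FPKM in IgM cells (SD, n = 5 each; log2 difference 0.70, SE 0.090, limma adjusted p = 7.51e-06). Pola1, the catalytic subunit of polymerase alpha that extends the primer, was at 7.96, 7.94, 9.53, 3.58 and 6.16 FPKM in the IgG1 libraries, against 3.14, 7.06, 5.67, 5.75 and 4.34 FPKM in the IgM libraries. The Pola1 groups overlapped (95% interval of the log2 difference -0.13 to 0.84, limma adjusted p = 0.239). IgG1 replicate 4 was at 3.58 FPKM for Pola1, below 4 of the 5 IgM libraries. The interval of Pola1 holds the log2 difference of Prim1, and the difference between these genes was not tested. Outside the module, the remaining subunits of the same complex also passed. Pola2 was at 25.5 FPKM in IgG1 and 15.9 FPKM in IgM cells (log2 difference 0.66, limma adjusted p = 1.55e-04), and Prim2 at 15.8 FPKM in IgG1 and 11.7 FPKM in IgM cells (log2 difference 0.41, limma adjusted p = 0.0408). The call of Prim2 ended under 11 of 21 alternatives (limma adjusted p up to 0.144). Its limma adjusted p was 0.0970 without IgG1 replicate 1, 0.0931 without IgG1 replicate 4, 0.0716 without IgG1 replicate 5, 0.0933 without IgM replicate 1, 0.0907 without IgM replicate 3 and 0.0888 without IgM replicate 5.

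The clamp, the 4 small subunits of its loader and the single-strand binding proteins Rpa1 and Rpa2 were higher in IgG1 cells. Pcna, the sliding clamp, was at 139.9 ± 7.15 FPKM in IgG1 and 86.0 ± 9.35 FPKM in IgM cells (SD, n = 5 each; log2 difference 0.70, SE 0.076, limma adjusted p = 9.83e-07). Among clamp loader genes, Rfc2 was at 154 FPKM in IgG1 and 96.3 FPKM in IgM cells, Rfc4 at 126 FPKM in IgG1 and 78.3 FPKM in IgM cells, Rfc5 at 51.3 FPKM in IgG1 and 37.6 FPKM in IgM cells and Rfc3 at 33.2 FPKM in IgG1 and 23.5 FPKM in IgM cells. Their log2 differences were 0.68, 0.67, 0.44 and 0.48 in the same order, and Rfc3 was the only one whose groups overlapped (limma adjusted p = 0.00894, and 0.0703 without the filter on low values). The large subunit Rfc1, which is outside the module, did not pass at 10.6 FPKM in IgG1 and 10.4 FPKM in IgM cells (95% interval of the log2 difference -0.43 to 0.38, limma adjusted p = 0.944). Rpa1 and Rpa2, subunits of the complex that coats single-stranded DNA, were at 99.4 FPKM in IgG1 and 58.5 FPKM in IgM cells and at 68.7 FPKM in IgG1 and 45.5 FPKM in IgM cells (limma adjusted p = 1.16e-07 and 1.26e-04). Fen1, the nuclease that trims Okazaki fragments, was at 162 FPKM in IgG1 and 114 FPKM in IgM cells (log2 difference 0.50, SE 0.062, limma adjusted p = 4.75e-06).

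Nucleotide supply genes were higher in IgG1 cells, 4 of 5 of them and these without overlap. Of all tested genes, 18.1% were higher and 13.1% had every IgG1 library above every IgM library. Dut (chromosome 2, 125247190 to 125258608, plus strand), which destroys dUTP so that uracil stays out of DNA and provides the dUMP for thymidylate, was at 93.4, 101, 83.2, 106 and 106 FPKM in the IgG1 libraries, against 42.2, 42.7, 46.8, 51.6 and 45.5 FPKM in the IgM libraries. Dut was 2.14-fold higher in IgG1 cells (log2 difference 1.08, SE 0.084, limma adjusted p = 2.39e-08). Tyms (chromosome 5, 30058202 to 30073617, minus strand), which turns dUMP into thymidylate, was at 113, 106, 114, 138 and 123 FPKM in the IgG1 libraries, against 58.0, 64.2, 65.8, 54.5 and 68.1 FPKM in the IgM libraries. Tyms was 1.91-fold higher in IgG1 cells (log2 difference 0.92, SE 0.083, limma adjusted p = 1.24e-07). Rrm2 (chromosome 12, 24708241 to 24714146, plus strand), the small subunit of ribonucleotide reductase, had the highest level of the module at 421, 432, 456, 461 and 458 FPKM in the IgG1 libraries, against 226, 257, 264, 269 and 287 FPKM in the IgM libraries. Rrm2 was 1.71-fold higher in IgG1 cells (log2 difference 0.77, SE 0.058, limma adjusted p = 1.61e-08). Rrm1, the large subunit, was at 70.5, 77.9, 73.1, 66.3 and 64.2 FPKM in the IgG1 libraries, against 39.5, 47.9, 40.1, 43.2 and 45.4 FPKM in the IgM libraries. Rrm1 was 1.63-fold higher in IgG1 cells (log2 difference 0.69, SE 0.083, limma adjusted p = 3.40e-06). Tk1, the thymidine kinase of the salvage route, was at 36.1, 35.8, 43.2, 46.6 and 46.3 FPKM in the IgG1 libraries, against 23.1, 37.8, 40.0, 33.5 and 31.4 FPKM in the IgM libraries. Tk1 did not pass (95% interval of the log2 difference 0.055 to 0.61, limma adjusted p = 0.0551). The groups of Tk1 overlapped, IgM replicate 1 was the lowest library, and the gene passed under 7 of 21 alternatives. Its limma adjusted p was 0.0429 without IgG1 replicate 1, 0.0417 without IgG1 replicate 2, 0.0409 without IgM replicate 2 and 0.0263 without IgM replicate 3.

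Of the genes that control S phase, 3 of 4 were higher in IgG1 cells, 2 of them without overlap. The shares over all tested genes were 18.1% higher and 13.1% with every IgG1 library above every IgM library. Ccne1, the cyclin E1 that activates Cdk2 at the start of S phase, was at 47.6, 57.4, 53.6, 52.7 and 47.2 FPKM in the IgG1 libraries, against 26.2, 34.3, 33.1, 34.1 and 32.6 FPKM in the IgM libraries. Ccne1 was 1.61-fold higher in IgG1 cells (log2 difference 0.68, SE 0.096, limma adjusted p = 2.13e-05). Its relative Ccne2 was at 28.7, 38.4, 31.8, 30.4 and 32.0 FPKM in the IgG1 libraries, against 19.9, 32.2, 28.7, 29.3 and 32.0 FPKM in the IgM libraries. Ccne2 did not pass (95% interval of the log2 difference -0.076 to 0.46, limma adjusted p = 0.253). The Ccne1 groups were apart and the Ccne2 groups overlapped, and Ccne2 passed with length and GC trends removed (log2 difference 0.38, limma adjusted p = 0.0194). Slbp, which binds the stem-loop of histone mRNAs, was at 139, 168, 165, 147 and 162 FPKM in the IgG1 libraries, against 86.2, 105, 96.5, 116 and 106 FPKM in the IgM libraries. Slbp was 1.53-fold higher in IgG1 cells (log2 difference 0.61, SE 0.080, limma adjusted p = 8.33e-06). E2f1, an activator of the S phase genes, was low in both groups at 9.72, 11.7, 7.13, 9.16 and 9.36 FPKM in the IgG1 libraries, against 5.89, 8.07, 6.04, 6.94 and 6.12 FPKM in the IgM libraries. E2f1 was 1.42-fold higher in IgG1 cells (log2 difference 0.45, SE 0.16, limma adjusted p = 0.0340). IgG1 replicate 3 lay within the IgM range for E2f1, and the call of the gene ended under 9 of 21 alternatives (limma adjusted p up to 0.347). With length and GC trends removed, the log2 difference of E2f1 was 0.20. The limma adjusted p of E2f1 was 0.0621 without IgG1 replicate 1, 0.0961 without IgG1 replicate 2, 0.0528 without IgG1 replicate 4, 0.0556 without IgG1 replicate 5, 0.0717 without IgM replicate 1, 0.0652 without IgM replicate 3 and 0.0643 without IgM replicate 5.

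**Figure D3:**
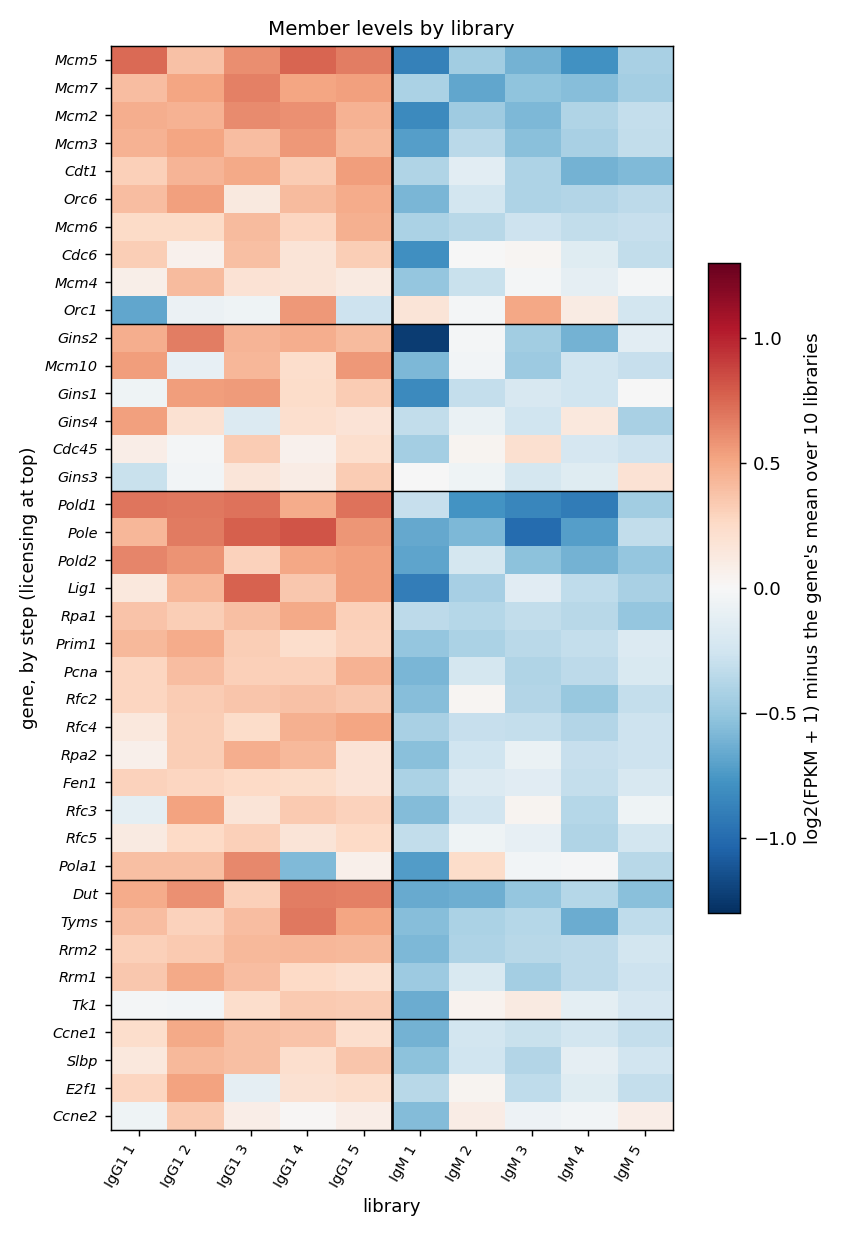
Log2 of FPKM plus 1 minus the mean of the gene over 10 libraries (colour) for 39 genes (rows, by step) in 5 IgG1 and 5 IgM libraries (columns). IgG1 columns are red for most rows, IgM columns are blue, and IgM 1 is the darkest blue column.

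Libraries of a group differed in how often they held the lowest value. Among IgM libraries, replicate 1 had the lowest value for 29 of 39 members and a summed member level of 1519 FPKM, against 1752 to 1840 FPKM in the other 4. Among IgG1 libraries, replicate 1 had the lowest value for 17 members, with sums of 2762 FPKM in it and 2887 to 2947 FPKM in the other 4. Without IgM replicate 1, 31 members were called higher and the median log2 difference was 0.64. Without IgG1 replicate 1, 32 were called higher and the median was 0.70.

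In the helicase ring, GINS, the small subunits of the clamp loader and cyclin E, shares of some subunits differed between the groups. Shares of each subunit in the summed FPKM of its complex were compared for the helicase ring, GINS, the small subunits of the clamp loader, ribonucleotide reductase, cyclin E, and subunits Rpa1 and Rpa2 of RPA, 17 shares in all, with two-sided exact permutation tests that cannot go below 0.00794 and adjustment over the 17. Of these shares 3 were higher and 3 lower in IgG1 libraries. Shares within a complex are not independent, since a larger share of a subunit lowers those of the rest. The complexes were chosen after their values were seen, and shares in other sets of genes were not tested. Mcm5 made up 15.9% ± 1.51 in IgG1 and 12.0% ± 1.18 in IgM libraries of the summed Mcm2 to Mcm7 level (exact permutation p = 0.00794, adjusted p = 0.0225, SD over 5 libraries a group). Mcm6 made up 31.9% ± 1.65 in IgG1 and 36.8% ± 1.59 in IgM libraries and Mcm4 8.02% ± 0.945 in IgG1 and 11.2% ± 1.01 in IgM libraries, both with the same exact permutation p and adjusted p. Gins2 made up 31.0% ± 1.62 in IgG1 and 23.0% ± 5.48 in IgM libraries of the GINS sum and Ccne1 61.6% ± 1.73 in IgG1 and 53.3% ± 2.43 in IgM libraries of the cyclin E sum, again at the smallest p. Rfc5 was lower, at 14.1% ± 0.834 in IgG1 and 16.0% ± 0.739 in IgM libraries of the clamp loader sum (exact permutation adjusted p = 0.0225, and 0.0771 after quantile normalization). Mcm2, at 15.2% ± 0.617 in IgG1 and 13.5% ± 1.14 in IgM libraries, did not pass after adjustment (exact permutation p = 0.0238, adjusted p = 0.0578), nor did Mcm7, at 14.0% ± 0.653 in IgG1 and 12.4% ± 1.42 in IgM libraries (exact permutation p = 0.0397, adjusted p = 0.0843). The balance of the reductase, with Rrm1 at 13.7% ± 1.24 in IgG1 and 14.3% ± 1.02 in IgM libraries, did not pass either (exact permutation p = 0.437, adjusted p = 0.444), and its difference was -0.59 percentage points. With 1 library left out, Mcm2 passed without IgG1 replicate 5, Mcm7 without IgM replicate 1 and Rfc2 without IgM replicate 2 (exact permutation adjusted p = 0.0385 each). Shares were not compared with length and GC trends removed, a setting that moved the log2 difference of Ccne2 from 0.19 to 0.38. Exons of Ccne2, Gins2 and Rfc5 also overlap a gene on the opposite strand, so their shares are uncertain by an unknown amount.

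**Figure D4:**
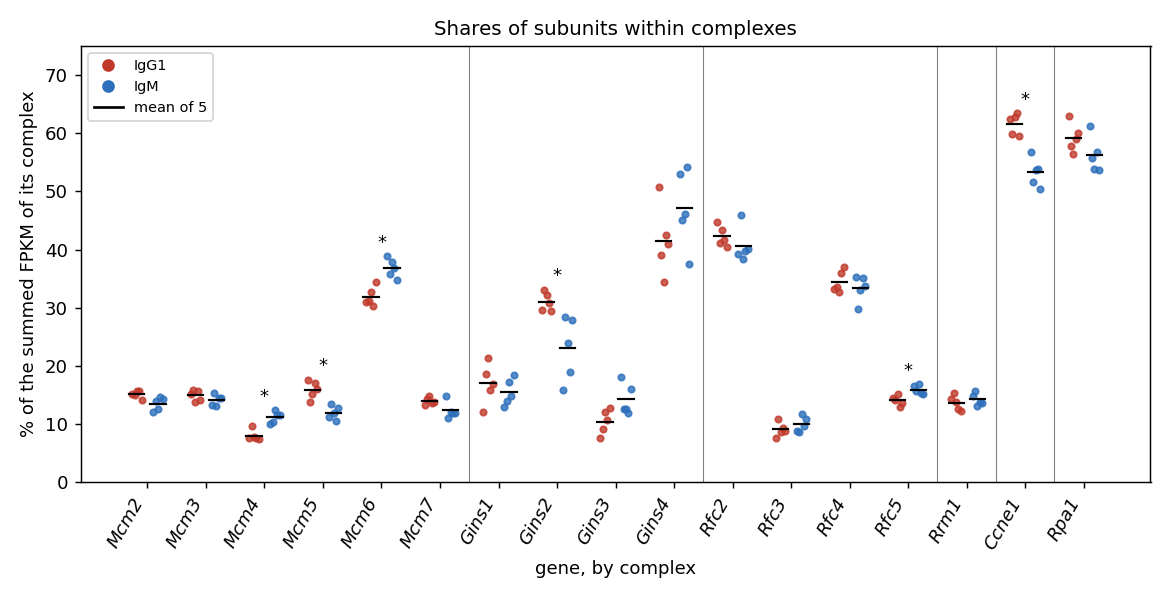
Share of each subunit in the summed FPKM of its complex in percent (y axis) in 5 IgG1 libraries (left) and 5 IgM libraries (right) for 17 subunits (x axis), with bars at the means. Asterisks mark the 6 shares with an adjusted p under 0.05, among them Mcm5 and Ccne1 with larger and Mcm4 and Mcm6 with smaller shares in IgG1 cells.

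Of 61 replication genes outside the module, all tested, 30 were higher in IgG1 cells, 4 were lower and 27 did not pass, with a median log2 difference of 0.36. Over all 9900 tested genes, 18.1% were higher and 20.2% were lower. Fork genes were higher in 14 of 21 cases and lower in 0. The chromatin assembly subunits Chaf1a and Chaf1b, which place histones behind the fork, were at 17.9 FPKM in IgG1 and 7.85 FPKM in IgM cells and at 20.2 FPKM in IgG1 and 9.12 FPKM in IgM cells (log2 differences 1.12 and 1.06, limma adjusted p = 2.17e-05 and 2.35e-05). Rnaseh2b, a subunit of the nuclease that removes ribonucleotides from DNA, was at 30.1 FPKM in IgG1 and 18.04 FPKM in IgM cells (log2 difference 0.70, limma adjusted p = 1.36e-04).

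Licensing genes outside the module went both ways, with 3 of 9 higher, 2 lower and a median of -0.11. Among all tested genes 18.1% were higher and 20.2% lower, and whether these short lists depart from those shares was not tested. Gmnn, the inhibitor of Cdt1, was at 90.4 FPKM in IgG1 and 60.1 FPKM in IgM cells (log2 difference 0.58, limma adjusted p = 2.40e-05). Lrwd1, which binds the origin recognition complex, was at 9.81 FPKM in IgG1 and 6.46 FPKM in IgM cells (log2 difference 0.59, limma adjusted p = 0.0309). Cdc7, the kinase that fires licensed origins, was placed in this list although it acts after licensing. Cdc7 was lower in IgG1 cells at 9.22 FPKM in IgG1 and 13.4 FPKM in IgM cells (log2 difference -0.55, limma adjusted p = 0.0307). Orc4 was also lower, at 32.5 FPKM in IgG1 and 42.9 FPKM in IgM cells (log2 difference -0.42, limma adjusted p = 0.0256). The calls of Cdc7, Orc4 and Lrwd1 ended under 10, 7 and 8 of 21 alternatives, and the log2 difference of Orc4 was -0.18 with length and GC trends removed and -0.28 without IgG1 replicate 1. The limma adjusted p of Cdc7 was 0.0760 without IgG1 replicate 1, 0.0881 without IgG1 replicate 2, 0.0604 without IgG1 replicate 4, 0.0798 without IgM replicate 2, 0.0520 without IgM replicate 4 and 0.0582 without IgM replicate 5. For Orc4 it was 0.0550 without IgG1 replicate 1, 0.0597 without IgG1 replicate 2, 0.0520 without IgM replicate 3 and 0.0661 without IgM replicate 4. For Lrwd1 it was 0.0688 without IgG1 replicate 2, 0.0520 without IgG1 replicate 4, 0.0696 without IgG1 replicate 5, 0.0857 without IgM replicate 3 and 0.0851 without IgM replicate 4. Helicase activation, whose list does not hold Cdc7, had 3 of 9 higher and 0 lower, with a median log2 difference of 0.078. Timeless and its partner Tipin, which protect the fork, were at 15.5 FPKM in IgG1 and 7.38 FPKM in IgM cells and at 112 FPKM in IgG1 and 74.2 FPKM in IgM cells (limma adjusted p = 1.06e-04 and 1.06e-04). Recql4, a helicase needed for origin firing, was at 2.31 FPKM in IgG1 and 1.01 FPKM in IgM cells (log2 difference 0.73, limma adjusted p = 0.0149). The call of Recql4 ended with length and GC trends removed (limma adjusted p = 0.0651).

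Nucleotide genes outside the module had 5 of 10 higher and 2 lower, where 18.1% of all tested genes were higher and 20.2% lower. Dctpp1, a pyrophosphatase that cleans the nucleotide pool, was at 103 FPKM in IgG1 and 49.6 FPKM in IgM cells (log2 difference 1.04, limma adjusted p = 3.59e-07). Nme1, a nucleoside diphosphate kinase, was at 444 FPKM in IgG1 and 265 FPKM in IgM cells (log2 difference 0.74, limma adjusted p = 1.61e-08). Cmpk1, the kinase of CMP and UMP, was lower in IgG1 cells at 119, 129.5, 114, 142 and 136 FPKM in the IgG1 libraries, against 231, 258, 289.7, 256 and 248 FPKM in the IgM libraries. Its groups did not overlap (log2 difference -0.996, limma adjusted p = 9.58e-09). Samhd1, which breaks down deoxynucleotides and is known for opposing their supply, was also lower at 172 FPKM in IgG1 and 219 FPKM in IgM cells, again without overlap (log2 difference -0.35, limma adjusted p = 3.29e-04). Control genes had 5 of 12 higher and 0 lower, led by the repressor E2f8 at 10.7 FPKM in IgG1 and 5.11 FPKM in IgM cells, the S phase cyclin Ccna2 at 86.5 FPKM in IgG1 and 55.5 FPKM in IgM cells and the E2F partner Tfdp1 at 68.2 FPKM in IgG1 and 46.1 FPKM in IgM cells (limma adjusted p = 1.03e-04, 4.42e-06 and 4.34e-05).

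Mitosis genes, measured in the same libraries, were higher in 9 of 16 cases and lower in 1, with a median log2 difference of 0.29. Among all tested genes 18.1% were higher and 20.2% lower. Plk1, a mitotic kinase, was at 66.2 FPKM in IgG1 and 32.7 FPKM in IgM cells (log2 difference 1.000, limma adjusted p = 6.62e-07). The checkpoint kinase Bub1 was at 15.2 FPKM in IgG1 and 7.52 FPKM in IgM cells (log2 difference 0.93, limma adjusted p = 1.18e-04). Cenpf, a kinetochore protein, was lower in IgG1 cells at 3.61 FPKM in IgG1 and 5.86 FPKM in IgM cells (log2 difference -0.63, limma adjusted p = 0.0320). Its call ended under 8 of 21 alternatives (limma adjusted p up to 0.291), and its log2 difference was -0.31 with length and GC trends removed. The limma adjusted p of Cenpf was 0.0879 without IgG1 replicate 4, 0.0734 without IgG1 replicate 5, 0.0587 without IgM replicate 1, 0.0656 without IgM replicate 3 and 0.0641 without IgM replicate 5. Mki67, the usual protein marker of cycling cells, was at 30.5, 39.7, 36.6, 39.4 and 35.7 FPKM in the IgG1 libraries, against 38.8, 41.9, 49.7, 46.2 and 39.6 FPKM in the IgM libraries. The Mki67 groups overlapped (95% interval of the log2 difference -0.45 to -0.034, limma adjusted p = 0.0625). Mki67 passed, as lower in IgG1 cells, without IgM replicate 1 and with levels rescaled to a common total without immunoglobulin genes (limma adjusted p = 0.0477 and 0.0377). Whether replication and mitosis genes differ in their change was not tested.

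**Figure D5:**
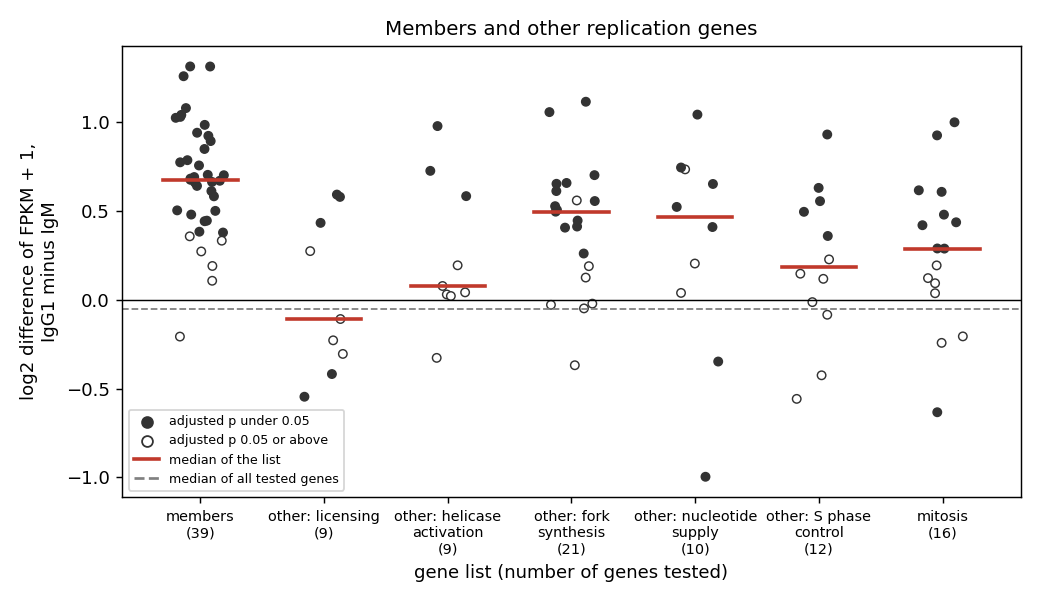
Log2 difference of FPKM plus 1 (IgG1 minus IgM, y axis) of each gene in the module, in 5 lists of other replication genes and in a list of mitosis genes (x axis, with the number tested). Red bars are medians, at 0.68 for the 39 members and -0.11 for the list of 9 other licensing genes, which holds Cdc7. Filled points passed at an adjusted p under 0.05.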

How the data were processed

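Per the labels' protocols, the RNA was isolated using miRNeasy Micro and made into libraries with SMART-Seq mRNA HT LP. The authors deposited FPKM values, fragments scaled to transcript length and library size, for each gene and library. HISAT2 2.1.0, Cufflinks 2.2.1, Cuffdiff and GRCm38 are named in the submitters' processing notes, while their settings, annotation release and strand setting are not stated there or in the labels. Of 47719 gene rows, 47305 matched GENCODE M21 and 414 did not.

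From these values, limma 3.58.1 in R 4.3.3 was run on log2 of FPKM plus 1 over genes averaging 1 FPKM or more, with group as the only term, trended and robust moderation, and Benjamini-Hochberg adjustment at 0.05. The scale understates the fold of low genes. Shares within complexes were compared by exact permutation tests (scipy 1.17.1). Depth, not stated by the authors, was estimated from the smallest FPKM steps of genes with 1 transcript, taking fragments of 200 bases. No pair of libraries held identical values.

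The members, gene lists and tests were chosen with earlier results of these data known, and the complexes after their values were seen. Values in every library are given for up to 4 called members a step with the largest differences, and means for up to 3 called genes of each other list plus any called against its majority. Library values of Orc1, Pola1, Tk1, Ccne2, Cmpk1 and Mki67, and the values of Pola2, Prim2, Rfc1, Gapdh and single marker genes, were chosen after they had been seen. Single values of some marker genes are not reported here. Promoter sequences came from RefSeq (GRCm38.p6).

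Alternatives were pseudocounts of 0.1 and 5, no filter and a filter at 5 FPKM, 3 other scalings, other moderation, library weights, a replicate block, removal of length and GC trends, and each of the 10 libraries left out in turn. For the shares, leaving out each library and quantile normalization were added after the data were seen.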

Additional observations from a re-analysis of the deposited data

Results flagged for a closer look

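Among 152 groups of 5 libraries examined for the values in the report, 7 held a library whose gap to the nearest other exceeded the 95% critical value of Dixon's test, where chance gives about 1 in 20. In IgM replicate 1, Ccne1 was at 26.2 FPKM, against 32.6 to 34.3 FPKM in the other IgM libraries. The same library had Ccne2 at 19.9 FPKM, against 28.7 to 32.2 FPKM, and Gmnn at 51.3 FPKM, against 60.4 to 63.0 FPKM. In IgG1 replicate 2, Gins2 was at 33.4 FPKM, against 28.0 to 29.3 FPKM in the other IgG1 libraries, and Mcm4 took 9.70% of the summed helicase ring, against 7.41% to 7.73%. In IgG1 replicate 4, Pold1 was at 16.6 FPKM, against 19.3 to 19.5 FPKM. In IgM replicate 2, Rfc2 took 45.9% of the summed clamp loader, against 38.3% to 40.1% in the other IgM libraries.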

How the results depend on the processing

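Over 21 alternatives, 28 to 34 members were called higher in IgG1 cells (31 to 34 with a library left out) and 0 lower, and the median log2 difference of the members lay between 0.64 and 0.71. The lowest count, 28, came without a filter on low values. Of the 33 called members, 28 passed under all 21 alternatives. Cdc6, Mcm4 and Rfc3 missed the threshold without the filter (limma adjusted p = 0.0685, 0.0530 and 0.0703), Gins4 under 8 settings (0.0517 to 0.145) and E2f1 under 9 (0.0528 to 0.347). Tk1 was gained under 7 settings (limma adjusted p = 0.0263 to 0.0429), Cdc45 without IgM replicate 3 (0.0227) and Ccne2 with length and GC trends removed (0.0194). Outside the module, the log2 difference of Rfc1, which did not pass, turned sign with median-ratio scaling (0.011), quantile normalization (0.094) and length and GC trends removed (0.081), and ran from -0.18 to 0.077 with a library left out. That of Xbp1 was -0.052 with length and GC trends removed. The causes were not tested. Of the 17 shares within complexes, 3 or 4 were higher and 3 lower with a library left out, and 3 were higher and 2 lower after quantile normalization. Under quantile normalization, which moved the median of all genes to 0.061 (against -0.051), 2182 genes were higher and 1510 lower, against 1791 and 2001 as deposited, while 33 members stayed above the threshold. With the replicate number as a block, 34 members and 3701 genes were called, but the pairing is not shown: correlations of same-numbered libraries ran from -0.036 to 0.097, and 1 of 5 correlated best with its own number. Without read counts, the depth behind single low values is an estimate.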
